A study of Homo sapiens with 6 samples.

Results

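The genes of epithelial junctions, desmosomes and simple keratins were examined in ES-2, an established human ovarian cancer cell line. They were chosen with earlier results of these data known. The set holds 35 genes listed for their place in the cell: 2 adhesion molecules, 11 genes of the tight junction and apical polarity, 11 of the desmosome and its plakins, 4 keratins, 5 regulators of the epithelial state, and a surface protease and a mucin. A gene counted as measured where an array probe set named it alone, which held for 34 of the 35, out of 18132 genes in all. F11R, a junctional adhesion molecule, had no such probe set and was not analysed here.

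Total RNA from logarithmically growing ES-2 cells was hybridised to 6 Affymetrix PrimeView arrays, which have 1 colour and read each gene with 1 or more probe sets. In the titles 3 arrays are labelled CADM1 overexpression and 3 are plain ES-2 cells, the mock controls of the series design, numbered 1 to 3 in each group. The source names of overexpression arrays 2 and 3 read CADM2 and CADM3, while their titles and genotypes read CADM1. The sources used here do not give the vector, the mode of delivery, or whether the cells were a clone or a pool. They also do not say if the 3 arrays of a label were grown separately, so p-values measure only the spread between arrays, which may be technical.

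The brightest CADM1 probe set went against the labels. Its log2 signal was 10.26 ± 0.030 (SD, n = 3) in the control arrays and 8.14 ± 0.040 (SD, n = 3) in the arrays labelled overexpression, and the groups did not overlap. CADM1 had 5 further probe sets, which gave differences from -0.06 to 0.17 and no call. The probe set at 0.17 averaged 7.47 in the control arrays and 7.64 in those labelled overexpression. Its groups did not overlap either, in the direction of the labels. The position of these probe sets relative to the introduced sequence is not known here, so directions below follow the labels as given.

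Epithelial cells hold together through junctions of several kinds. E-cadherin (CDH1) joins neighbours at the adherens junction, claudins and occludin seal the tight junction and bind scaffolds such as ZO-1 (TJP1), and desmosomal cadherins (DSG2, DSC2, DSC3) are linked by plakoglobin (JUP), plakophilins and desmoplakin (DSP) to keratin filaments. GRHL2, OVOL2, ELF3 and the splicing factors ESRP1 and ESRP2 maintain this state, while ZEB and SNAI factors repress several of its genes by binding E-box sequences. Ovarian cancer lines range from epithelial to mesenchymal in this respect.

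The genes that fell, DSP and ELF3, are shown by the 300 bases around their start, with the CLDN7 window that held more E-boxes than theirs. These windows run from 250 bases before to 50 bases after the start in RefSeq (GRCh38.p14), in the direction of the gene. They lie at chr6:7541421-7541720 (plus strand) for DSP, at chr1:202010337-202010636 (plus strand) for ELF3 and at chr17:7262429-7262728 (minus strand) for CLDN7. Capitals mark the E-box CACCTG, searched on both strands and so also read as CAGGTG.
DSP: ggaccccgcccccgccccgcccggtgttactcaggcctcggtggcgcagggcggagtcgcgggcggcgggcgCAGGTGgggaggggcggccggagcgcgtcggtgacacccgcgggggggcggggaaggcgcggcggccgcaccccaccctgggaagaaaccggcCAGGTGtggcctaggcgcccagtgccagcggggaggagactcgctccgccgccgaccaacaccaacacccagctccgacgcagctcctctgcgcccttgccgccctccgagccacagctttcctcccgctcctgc
ELF3: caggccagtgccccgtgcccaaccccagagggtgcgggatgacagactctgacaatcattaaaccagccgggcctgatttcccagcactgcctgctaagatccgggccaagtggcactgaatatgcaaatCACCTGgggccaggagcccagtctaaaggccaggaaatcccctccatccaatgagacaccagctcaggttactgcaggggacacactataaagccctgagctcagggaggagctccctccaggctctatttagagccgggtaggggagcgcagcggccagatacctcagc
CLDN7: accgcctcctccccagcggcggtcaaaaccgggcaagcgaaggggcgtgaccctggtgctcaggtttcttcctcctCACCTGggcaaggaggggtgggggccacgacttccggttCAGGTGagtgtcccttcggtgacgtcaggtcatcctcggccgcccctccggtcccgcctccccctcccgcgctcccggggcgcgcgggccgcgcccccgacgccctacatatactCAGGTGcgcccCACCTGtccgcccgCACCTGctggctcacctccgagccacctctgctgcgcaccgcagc

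DSP held 2 matches, the first at -178 and the last at -85 from the start, and ELF3 held 1, at -120. The CLDN7 window shown held 5, the first at -174 and the last at 6. The other CLDN7 window, at chr17:7263164-7263463, held 0, and the CRB3 window, not shown, also held 5. RefSeq promoter windows were at hand for 20 of the 35 genes, 30 windows in all. None was at hand for CDH1, EPCAM, F11R, KRT7, KRT18, KRT19, PKP2, PKP3, PPL, EVPL, ESRP1, ESRP2, GRHL2, OVOL2 and ST14, which were not searched. CACCTG was present in 12 of the 20 genes with a window (60%), against 24.1% of all 27305 genes with a window. The 12 were CLDN3, CLDN7, CRB3, DSC2, DSG2, DSP, ELF3, JUP, MUC1, OCLN, TJP1 and TJP3. Counted by window it was in 46.7% of the windows of these genes and in 20.6% of all. The member windows also had a higher median GC content, 66.2% against 58.7%, and its part in the share was not tested. The core of the grainyhead site, ACCGGT (its own complement), was in 1 of the 20 genes, MUC1, against 2.24% of all genes. The ETS sequence AGGAAG, read by factors such as ELF3 and searched also as CTTCCT, was in 10 of 20 (50%) against 38.1% of all genes, and no CACCTG match overlapped either of the other sequences. A match describes the letters in the window and shows no binding.

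Levels are log2 signals, and since probe sets differ in how strongly they bind, a level shows where a probe set lies among all signals on the array and does not order transcripts between genes. Of the 34 measured genes 15 averaged 6.19, the median over probe sets, or more across the 6 arrays. KRT18, KRT8 and KRT7, keratins of simple epithelium, averaged 13.26, 12.98 and 12.50, brighter than 99.7%, 99.6% and 99.2% of probe sets. JUP averaged 10.21, ELF3 9.54, and DSP and the plakin PPL 9.13 each. EPCAM, the carcinoma surface antigen, averaged 2.95, where only 4.47% of probe sets were dimmer. CDH1 averaged 4.83, GRHL2 4.47, ESRP2 4.46, ESRP1 3.71, DSC2 3.78 and DSC3 3.21, all below the median. No detection calls were used, so whether these dim probe sets detect their genes is not known.

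**Figure D1:**
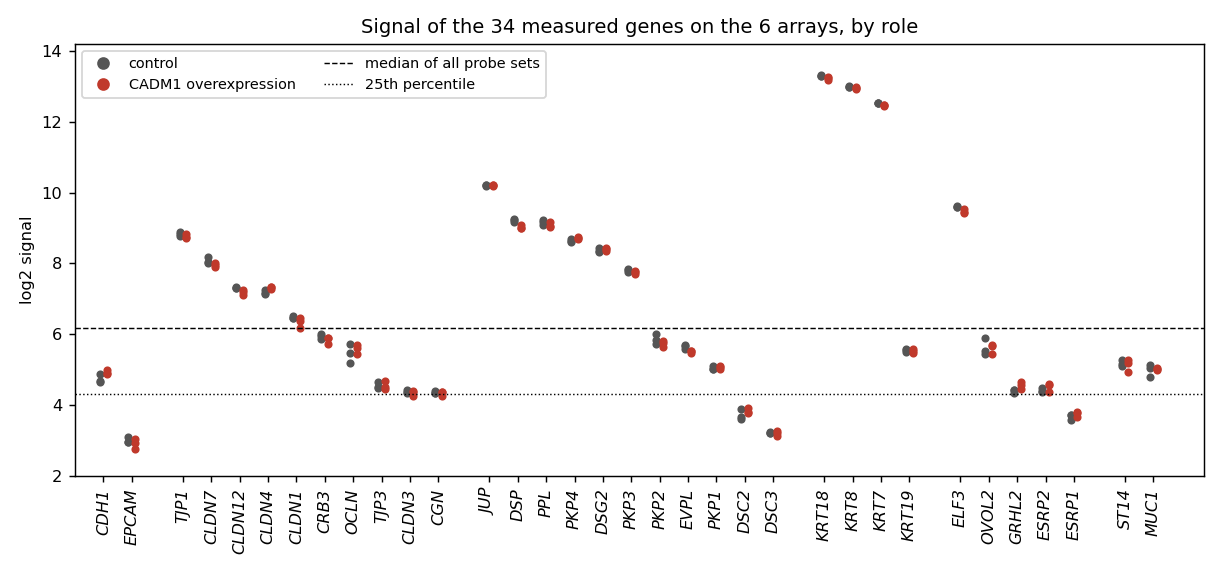
Log2 signal of the 34 measured genes (vertical axis), ordered by role and then by level, with 1 point per array: grey for the 3 control arrays and red for the 3 arrays labelled overexpression. KRT18, KRT8 and KRT7 average 13.26, 12.98 and 12.50, EPCAM averages 2.95, and 15 of the 34 genes average above the dashed median of all probe sets (6.19), while the dotted line is the 25th percentile.

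Of the 13 mesenchymal markers 10 were at or above the median level. VIM averaged 13.0 in the control arrays, ZEB1 8.29, the E-cadherin repressor SNAI2 8.30 and N-cadherin (CDH2) 8.26, while the E-cadherin repressor ZEB2 at 4.91, SPARC at 4.89 and COL3A1 at 3.39 were the 3 below the median. Of the 9 measured ovarian markers 4 were at or above the median, FOLR1 at 10.91, MSLN at 9.96, NAPSA at 6.84 and SOX17 at 6.48. The 5 below it included PAX8 at 4.57, WT1 at 4.23 and EMX2 at 4.10, and none of the 9 was called. Blood and fibroblast markers all lay below the median in both groups, from 2.90 for PTPRC to 5.42 for CD3E in the control arrays for blood, and from 2.85 for FAP to 6.06 for PDGFRB for fibroblasts, with none called among 5 and 7. The endothelial cadherin CDH5, at 6.77 in the control arrays, fell by 0.27 as the 1 called gene of 7 endothelial markers (limma, adjusted p = 0.0475), with PECAM1 the dimmest at 3.68. The CDH5 call was lost without any 1 of the 6 arrays, at adjusted p-values from 0.0558 without overexpression array 3 to 0.199 without control array 2.

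The comparison asked how these genes differed between arrays labelled overexpression and control arrays. DSP, the desmosome protein that holds keratin filaments, and ELF3, an epithelial ETS transcription factor, fell in the arrays labelled overexpression, and no measured gene of the set was called higher. Called means an adjusted p under 0.05. In bulk RNA, fewer cells with a transcript and less of it per cell cannot be told apart. That is 2 of 34 called (5.88%), against 2.16% of all 18132 genes, and 2 called lower against 1.2% of all genes. Differences were small throughout: the largest in size was 0.18 on the log2 scale, and the 95% intervals of all 34 lay between -0.29 and 0.37, that is within 1.29-fold higher and 1.23-fold lower. At an unadjusted p under 0.05 there were 9 of the 34, against 13.9% of all genes, and 7 of them were lower, against 6.97% of all. The groups did not overlap for 11 of the 34, against 18.3% of all genes, and for 8 of these the arrays labelled overexpression were the lower ones, against 8.61% of all. The median log2 fold change was -0.04 over the 34 and 0.01 over all genes.

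The sign of the differences varied with signal level. Of the 15 genes at or above the median level, 12 had a negative log2 fold change, with a median of -0.07, where 51.8% of all genes at that level were negative. Of the 19 dimmer genes 10 were negative, with a median near 0 (-0.0013), where 38.0% of all dimmer genes were negative. Both calls were among the brighter genes, 2 of 15, where 3.86% of all genes at that level were called, and none of the 19 dimmer genes was called, where 0.179% of all such genes were.

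**Figure D2:**
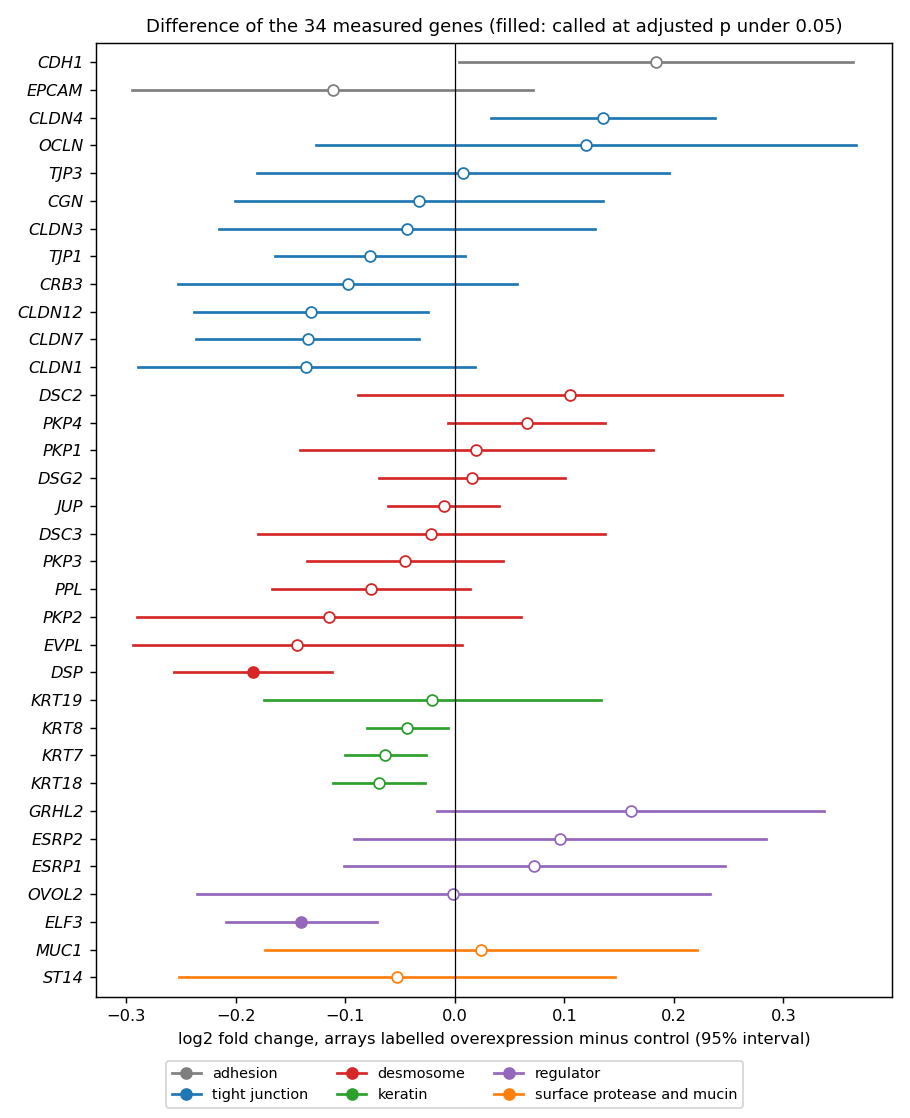
Log2 fold change (horizontal axis, arrays labelled overexpression minus control) with its 95% interval for each of the 34 measured genes, coloured by role. Filled points mark genes called at an adjusted p under 0.05: these are DSP at -0.18 and ELF3 at -0.14, and all intervals lie between -0.29 and 0.37.

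Among the 11 desmosome genes, DSP was called lower and none was called higher. DSP read 9.25, 9.17 and 9.24 on control arrays 1 to 3 and 9.003, 9.09 and 9.01 on the arrays labelled overexpression 1 to 3. The highest overexpression array stayed below the lowest control array. The log2 fold change was -0.18 ± 0.034 (SE), a signal 1.14-fold higher in the control arrays (limma, adjusted p = 0.0101). Its second, dimmer probe set, averaging 8.02 against 9.13, had the same sign but gave -0.04 and was not called (limma, adjusted p = 0.777 with probe sets tested singly). The mean of both probe sets gave -0.11 (limma, adjusted p = 0.0833), and the call was also lost without the first overexpression array (0.0853), without the first control array (0.0782) and without a mean-variance trend (0.229).

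The cadherins and linkers that meet DSP in the desmosome showed no call. JUP, read by 1 probe set, measured 10.23, 10.23 and 10.18 on the control arrays and 10.21, 10.21 and 10.19 on the arrays labelled overexpression. These values overlap, and the difference of -0.01 had a 95% interval from -0.06 to 0.04. DSG2, the widely expressed desmoglein, gave 0.02, with an interval from -0.07 to 0.10. The plakophilins, which gather desmoplakin at the plaque, gave 0.02 for PKP1, -0.11 for PKP2, -0.05 for PKP3 and 0.07 for PKP4. The 4 PKP4 probe sets did not share a sign, at -0.04 to 0.07, whereas those of PKP2 were both negative, at -0.16 and -0.11. PPL and EVPL, plakins that also serve the cornified envelope, gave -0.08 and -0.14. EVPL, at 5.67, 5.59 and 5.70 in the control arrays and 5.48, 5.52 and 5.51 in those labelled overexpression, did not overlap between the groups, and PPL did. The dim DSC2 and DSC3 gave 0.11 and -0.02, and the 6 DSC2 probe sets divided into 3 above and 3 below 0.

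None of the 4 keratins was called, and each had a negative log2 fold change. KRT7 read 12.53, 12.55 and 12.52 on the control arrays and 12.47, 12.46 and 12.47 on the arrays labelled overexpression. The groups stood apart by a small step, since the SD within a group was 0.013 and 0.0061. The difference of -0.06 had a 95% interval from -0.10 to -0.03 (limma, adjusted p = 0.081). KRT18, the partner of KRT8 in simple epithelial filaments, read 13.29, 13.30 and 13.31 against 13.23, 13.19 and 13.26, a difference of -0.07 without overlap (limma, adjusted p = 0.0922). KRT8 read 13.01, 12.99 and 13.00 against 12.97, 12.95 and 12.94, a difference of -0.04 without overlap (limma, adjusted p = 0.26). KRT19, an acidic keratin of simple epithelia, was much dimmer at 5.55 and 5.53, and its difference of -0.02 had an interval from -0.17 to 0.13.

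The keratin probe sets repeated the sign. All 8 KRT8 probe sets were negative, from -0.09 to -0.04, and 7 of the 8 did not overlap between the groups. Both KRT18 probe sets were negative, and the second, at -0.10, passed the threshold when probe sets were tested singly (limma, adjusted p = 0.0474). These 10 are of the _x_at type, which can bind several transcripts, and KRT8 and KRT18 have many pseudogene copies, so they are no independent readings. KRT7 and KRT18 passed the threshold with probe sets averaged per gene (limma, adjusted p = 0.0489 for each). Both also passed among genes whose higher group mean reached the median level (0.0413 and 0.0493), and KRT18 without the third overexpression array (0.0453). In the other alternatives neither passed, and the highest values were 0.488 and 0.498, without a trend. KRT7 has 1 probe set, so averaging probe sets left its own values unchanged. Signals of 12 to 13 lie near the top of the scale, which ended at 14.33, and saturation was not assessed.

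**Figure D3:**
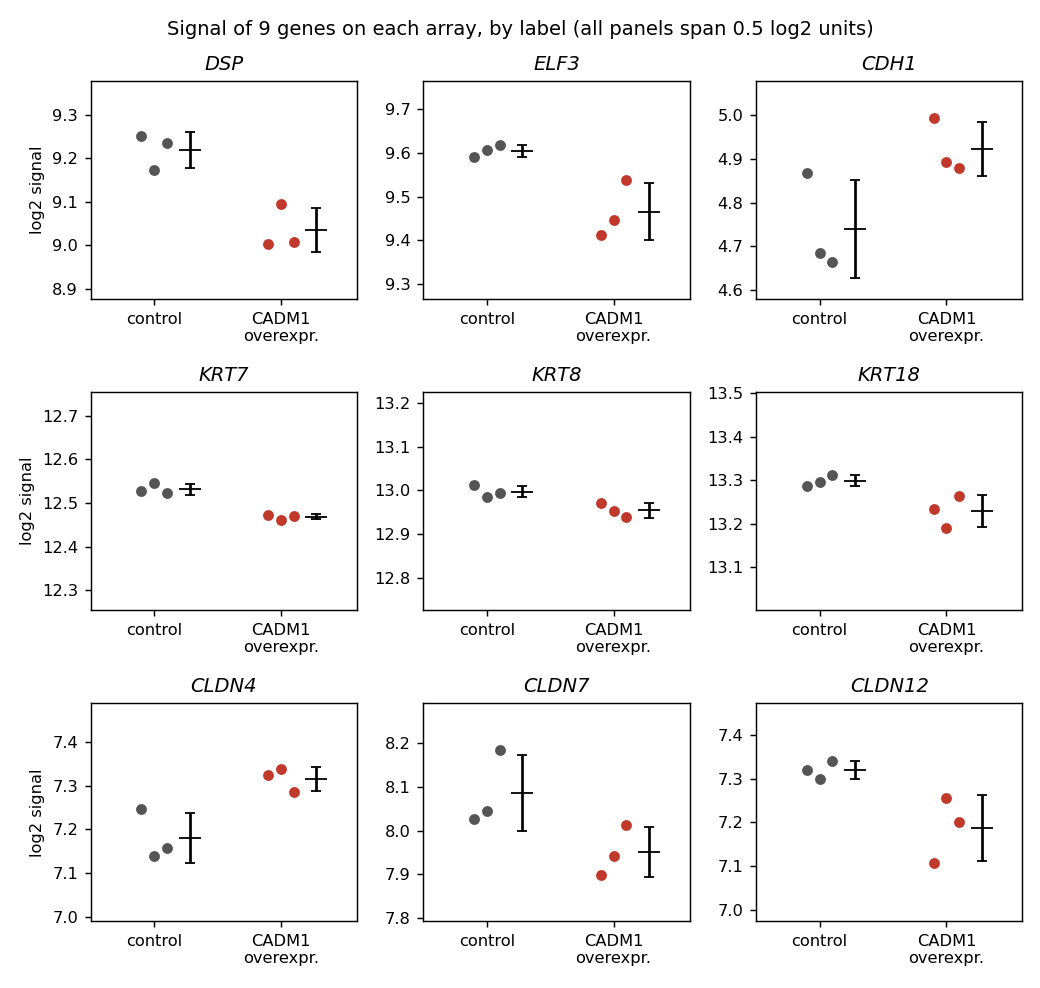
Log2 signal (vertical axis, each panel spanning 0.5 log2 units) of 9 genes on each array, grey for control and red for arrays labelled CADM1 overexpression, with the group mean and SD (n = 3) as a bar beside the points. The 9 were picked from the 11 of 34 measured genes whose groups did not overlap, against 18.3% of all genes, so the groups stand apart in every panel. EVPL, which was lower, and GRHL2, which was higher, are not shown. CDH1 and CLDN4 are higher in the arrays labelled overexpression and the other 7 are lower, of which DSP and ELF3 were called.

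None of the 10 measured tight junction genes was called, 7 were negative and the median was -0.06. The claudins, which set the paracellular seal, pointed both ways. CLDN4 read 7.25, 7.14 and 7.16 on the control arrays and 7.32, 7.34 and 7.29 on the arrays labelled overexpression. It was higher on each of the latter, by 0.14, with a 95% interval from 0.03 to 0.24 (limma, adjusted p = 0.195). CLDN7 read 8.03, 8.04 and 8.19 against 7.90, 7.94 and 8.01, a difference of -0.13 with an interval from -0.24 to -0.03 (limma, adjusted p = 0.196). CLDN12 read 7.32, 7.30 and 7.34 against 7.11, 7.26 and 7.20, a difference of -0.13 with an interval from -0.24 to -0.02 (limma, adjusted p = 0.229). In these 3 claudins the groups did not overlap. The other CLDN4 probe sets gave 0.07 and -0.04, and the other CLDN12 probe set gave -0.03, while CLDN7 had 1 probe set.

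CLDN1 gave -0.14, but its groups overlapped because overexpression array 3, at 6.47, lay among the controls, which ran from 6.45 to 6.52. CLDN3 gave -0.04 at a dim 4.36. The scaffolds TJP1 (ZO-1) and TJP3 (ZO-3) gave -0.08 and 0.01, and cingulin (CGN), which ties the junction to the cytoskeleton, gave -0.03. Occludin (OCLN) gave 0.12, with the widest interval of the set, from -0.13 to 0.37, since its control arrays ranged from 5.19 to 5.73. The polarity gene CRB3 gave -0.10. Its other probe sets gave 0.02, from a brighter probe set of the _x_at type, and -0.02. The other CLDN1 probe sets gave -0.04, 0.10 and -0.09, and the other CGN probe sets -0.06 and -0.01. For TJP1 and OCLN the other probe set had the opposite sign, at 0.02 and -0.01.

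Among adhesion molecules, CDH1 read 4.87, 4.68 and 4.66 on the control arrays and 4.99, 4.89 and 4.88 on the arrays labelled overexpression. The latter were higher without overlap, by 0.18, with an interval from 0.003 to 0.36 (limma, adjusted p = 0.346). The second CDH1 probe set, dimmer at 3.90, gave -0.07. EPCAM gave -0.11 with overlapping groups, and its 2 dimmer probe sets gave 0.11 and 0.03.

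Of the 5 regulators ELF3 was called lower and none was called higher, while 3 of the 5 had a positive difference. ELF3 read 9.59, 9.61 and 9.62 on the control arrays and 9.41, 9.45 and 9.54 on the arrays labelled overexpression. All 3 of the latter were below the controls, and the third was the nearest to them. The log2 fold change was -0.14 ± 0.032 (SE), a signal 1.10-fold higher in the control arrays (limma, adjusted p = 0.0376). A second ELF3 probe set of nearly equal level gave -0.14 (limma, adjusted p = 0.0634 with probe sets tested singly). It read 9.59, 9.61 and 9.61 on the control arrays and 9.41, 9.45 and 9.55 on the arrays labelled overexpression. These values nearly repeat those of the first probe set, so it may not be an independent reading. The third ELF3 probe set, dimmer at 6.61, gave -0.01 with overlapping groups. The ELF3 call was lost with the mean of its probe sets (-0.09, adjusted p = 0.182), without a trend (0.311), and without overexpression array 1 (0.215) or 2 (0.13) or control array 1 (0.112), 2 (0.111) or 3 (0.0916).

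GRHL2, a grainyhead factor that activates junction genes, gave 0.16 without overlap, from 4.33 to 4.42 in the control arrays and from 4.45 to 4.64 in those labelled overexpression (limma, adjusted p = 0.416). Of its 5 probe sets, all below the median level, 2 were positive and 3 negative. ESRP1 and ESRP2 gave 0.07 and 0.10, and OVOL2, a repressor of mesenchymal genes, gave -0.0013 with an interval from -0.24 to 0.23. Matriptase (ST14), a membrane serine protease, gave -0.05, and the mucin MUC1 gave 0.02. MUC1 was read by 13 probe sets, 12 of them of the _x_at type and so not used. These reached a level of 8.25, and of all 13 there were 9 negative and 4 positive, from -0.17 to 0.02, with none called.

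**Figure D4:**
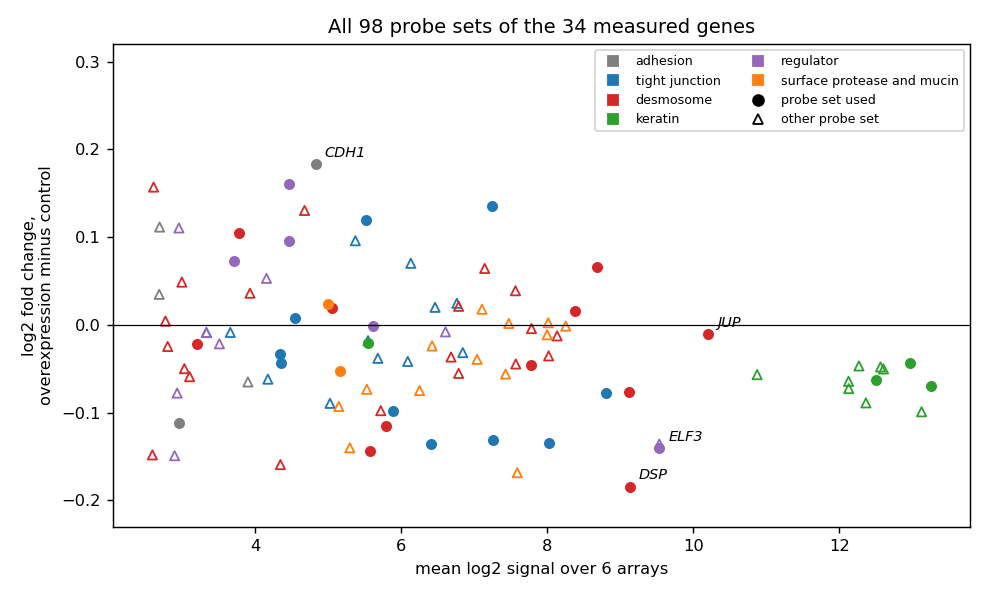
Log2 fold change (vertical axis, arrays labelled overexpression minus control) against mean log2 signal over the 6 arrays (horizontal axis) for all 98 probe sets of the 34 measured genes, coloured by role, with circles for the probe set used per gene and triangles for the others. The keratin probe sets at the right lie just below 0, from -0.10 to -0.04 above a level of 10, and dim probe sets scatter on both sides of 0.

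Of the 34 genes 26 had more than 1 probe set, and in 12 of these all probe sets shared a sign. With probe sets tested singly, 3 of the 98 were called (3.06%), against 1.49% of all 49293, 1 each for DSP, ELF3 and KRT18. These 3 were lower, against 0.887% of all probe sets called lower. Within groups the genes spread about as much as others did, with a median SD of 0.064 against 0.065 over all genes, from 0.010 to 0.21.

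**Figure D5:**
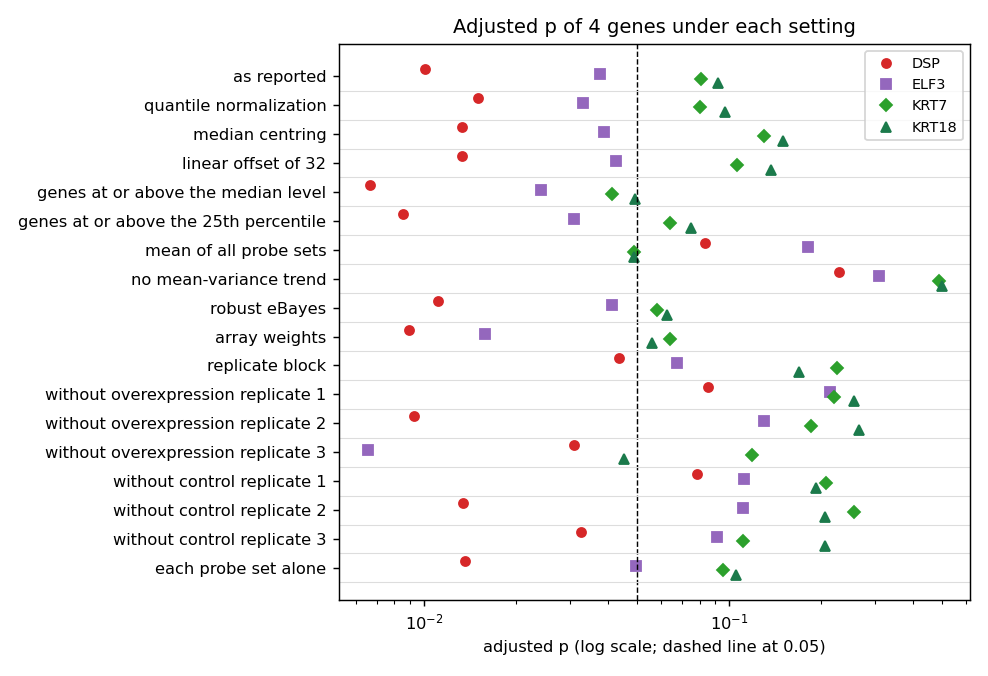
Adjusted p (horizontal axis, log scale, limma) of DSP, ELF3, KRT7 and KRT18 in the comparison as reported and under 17 alternatives (vertical axis), with the threshold of 0.05 as a dashed line. DSP lies below 0.05 in 13 alternatives and ELF3 in 9. In the fit with probe sets averaged per gene, KRT7 (1 probe set) and KRT18 lie below the threshold and DSP and ELF3 above it.

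Further genes of the same structures were taken from lists made by structure, 89 measured genes in all, and 3 of them were called higher and 1 lower. That is 4.49% called, against 2.16% of all genes, of which 0.96% were called higher and 1.2% lower. These lists, like the set itself, were chosen with earlier results of these data known, so the shares called only describe them. Their median log2 fold change was 0.02. Of 11 further adherens junction genes LIMA1, an actin-binding protein of the junction, rose by 0.11 (limma, adjusted p = 0.0238), and 2 of its 3 probe sets had that sign, while the third, dimmer at 7.02, gave -0.05. Of 29 further tight junction genes PATJ, a scaffold of the Crumbs polarity complex, rose by 0.22 (limma, adjusted p = 0.0215), and 6 of its 7 probe sets were positive. PATJ read 7.34, 7.25 and 7.33 on the control arrays and 7.51, 7.58 and 7.51 on the arrays labelled overexpression, with a clear gap between the groups.

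Of 9 further regulators KLF4 rose by 0.15 (limma, adjusted p = 0.0495) and its relative KLF5 fell by 0.11 (limma, adjusted p = 0.0281), both Krüppel-like factors of epithelia. KLF5 read 9.76, 9.77 and 9.80 against 9.66, 9.67 and 9.66, and all 3 of its probe sets were negative without overlap. Both KLF4 probe sets were positive. None of 11 desmosome and cell envelope genes was called, with the envelope precursor IVL at 0.23 and the desmosome protein PERP at -0.05. None of 13 further keratins and filament linkers was called, with the cytolinker PLEC at 0.11 (limma, adjusted p = 0.0674) and KRT80 at -0.12, and none of 16 surface genes, with MUC4 at 0.25 and MAL2 at -0.18. Over 17 alternatives the call was lost in 8 for LIMA1, 7 for PATJ, 11 for KLF4 and 8 for KLF5. Leaving out overexpression array 1, 2 or 3 took KLF5 to adjusted p-values of 0.126, 0.0785 and 0.0527, and control array 1, 2 or 3 to 0.0876, 0.0848 and 0.0889. KLF4 lost its call without overexpression array 1 (0.0894), 2 (0.185) or 3 (0.0599) or control array 1 (0.182) or 2 (0.162). LIMA1 lost it without overexpression array 1 (0.151) or 3 (0.0558) or control array 1 (0.083), 2 (0.102) or 3 (0.0502), and gave 0.03 with its probe sets averaged (0.472). PATJ lost it without overexpression array 1 (0.0791) or 2 (0.101) or control array 1 (0.0652) or 2 (0.0994), and gave 0.13 with its probe sets averaged (0.185).

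Among the 13 mesenchymal markers SNAI2, a repressor of CDH1, rose by 0.18 (limma, adjusted p = 0.0259) and smooth muscle actin (ACTA2) rose by 0.26 (limma, adjusted p = 0.00318), and none was called lower. That is 2 of 13 called (15.4%), against 2.16% of all genes. The 13 markers had no common direction, with 7 positive, 6 negative and a median of 0.007. Groups did not overlap for 6 of the 13, 3 higher and 3 lower, against 18.3% of all genes. SPARC gave -0.30 without overlap, not called (limma, adjusted p = 0.18). TWIST1 at -0.08 and S100A4 at -0.04 were also lower without overlap and not called. VIM gave 0.03, ZEB1 0.01, ZEB2 -0.07, SNAI1 -0.04 and CDH2 0.03. SNAI2 lost its call in 7 of 17 alternatives, among them without overexpression array 1 (adjusted p = 0.134), 2 (0.0782) or 3 (0.0535) and control array 1 (0.108) or 3 (0.0819). ACTA2 lost it in 2, with its probe sets averaged (0.07, adjusted p = 0.601) and without a trend (0.17). The part of these differences in those of DSP and ELF3 was not tested.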

How the data were processed

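Expression was measured in 6 arrays, 3 labelled CADM1 overexpression and 3 control. The authors deposited log2 values for 49395 probe sets and credit them to MAS5, per the submitters' processing notes, with no version or setting. The log2 scale was inferred from the range of 2.15 to 14.33 and array medians of 6.18 to 6.20. Array minima of 2.15 to 2.23 look more like an RMA type of summary, so the method, and with it the size of fold changes at low signal, is unsettled. The scaling of the arrays and the genome build are not stated in the sources used here.

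Of the probe sets 44988 named 1 gene in the platform annotation, 1832 several and 2473 none, beside 102 array controls. For 44961 a gene number was found in RefSeq's gene table (GRCh38.p14), which gave current symbols. A gene was represented by its brightest probe set (mean of 6 arrays), of the _x_at type only where no other existed (601 genes). No dim gene was left out. The comparison used limma 3.58.1 (lmFit and eBayes, two-sided, with the prior variance following the signal level) under R 4.3.3. Its p-values were adjusted over 18132 genes by Benjamini-Hochberg, and "called" means under 0.05 after that. Scripts were tested on simulated data. Correlations between arrays over these genes ran from 0.998 to 0.999, and precision is limited by how few arrays there are.

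The members and lists were chosen with earlier results of these data known. Genes named are all members, called genes of the other lists (or the 2 of lowest p), CADM1, and the called, brightest and dimmest markers; further mesenchymal and ovarian markers were chosen after their values were seen. Alternatives were quantile normalization, median centring, a linear offset of 32, 2 filters on dim genes, probe sets averaged or alone, 2 variance models, array weights, a replicate block, and leaving out each array. Same-numbered arrays showed no strong shared deviation, and whether they were handled as pairs is not known here. Figures used matplotlib 3.10.9 in Python 3.11.15.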

Additional observations from a re-analysis of the deposited data

How the results depend on the processing

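DSP and ELF3 were negative in all alternatives run. Both kept their call under quantile normalization, median centring, the linear offset, both filters on dim genes, robust eBayes, array weights and each probe set alone. The filter at the median level kept genes whose higher group mean reached it, not the mean of all arrays used for the shares by level above. With it 4 of 15 members were called (26.7%), against 560 of all 9849 such genes (5.69%). None of the members (0) was called without a mean-variance trend, where 11 of all genes and 0 of the other epithelial genes were called. With the mean of all probe sets 2 members were called, KRT7 and KRT18, in place of DSP and ELF3. Leaving out 1 array gave 0 to 3 called members, 116 to 375 called genes and 0 to 2 other epithelial genes. With the replicate block 1 member (DSP), 172 genes and 0 other epithelial genes were called, ELF3 losing its call (limma, adjusted p = 0.0673). Deviations of same-numbered arrays from their group means had correlations of 0.129, -0.0713 and -0.0734, so no strong shared deviation was seen. Whether same-numbered arrays were handled as pairs is not known here. At an unadjusted p under 0.05 in the comparison as reported 9 members were counted.

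Of the 34 members 12 changed sign under some alternative, none of them called there. These were EPCAM (0.012), GRHL2 (-0.0043) and MUC1 (-0.042) with the mean of all probe sets, TJP3 (-0.020) and PKP1 (-0.00061) with quantile normalization, and OVOL2 with median centring (0.0018) and array weights (0.0057). Leaving out 1 array gave OCLN -0.016 to 0.26, TJP3 -0.059 to 0.057, CGN -0.052 to 0.0054, DSG2 -0.0090 to 0.050, DSC3 -0.052 to 0.018, KRT19 -0.052 to 0.0052, OVOL2 -0.092 to 0.14, ST14 -0.12 to 0.045 and MUC1 -0.074 to 0.097. The causes were not tested. Signal over background was not assessed, and dim members have the widest intervals.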
